A study of Homo sapiens with 9 samples.

Results

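The collagen chain genes are the genes that encode the alpha chains of the collagens. These were all genes whose symbol reads COL, a number, A and a number, which gave 44 of the 60230 genes in the tables. Polyadenylated RNA was sequenced in 9 libraries of the established cell line NCI-H358, derived from a human lung cancer and sensitive to sotorasib, a covalent inhibitor used as a cancer drug. The 3 on-drug libraries came from NCI-H358-R, a resistant derivative, in the presence of 250 nM sotorasib and 4 days after dosing. The 3 off-drug libraries came from the same NCI-H358-R line with no drug present, and the labels do not state how long the drug had been withdrawn. The 3 parental libraries came from the sotorasib-sensitive line with no treatment. NCI-H358-R was derived by keeping NCI-H358 in 250 nM sotorasib for about 2 months, so the resistant cells are 1 derived line, and the labels do not say whether clones were picked. The study names them biological replicates without saying whether cultures were separate, so a p-value here reflects only how these libraries vary, which could be technical.

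Collagens are the main structural proteins of the extracellular matrix. Each chain carries long runs of a glycine-containing repeat, and chains of matching types wind around each other into a helix inside the endoplasmic reticulum, where prolines and lysines are hydroxylated before export. Fibril-forming collagens such as type I give tissue its tensile strength, type IV builds the sheet of the basement membrane, and other classes decorate fibrils, anchor epithelia or sit in the cell membrane. In lung, fibroblasts are the usual source of interstitial fibrils, while epithelial cells contribute basement membrane and attachment collagens.

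Of the 44 genes, 42 had at least 1 estimated read count in at least 1 library. COL4A1 and COL22A1 were the 2 that were not detected, with 0 counts in all 9 libraries. Levels between genes were compared as TPM, a unit scaled for gene length and library. A mean of at least 1 TPM was reached by 14 members on drug, 12 off drug and 10 in parental cells, and a count in every library of the state by 35, 29 and 24 members. COL18A1, which encodes a basement membrane collagen whose end fragment is endostatin, ranked first in every state and made up 38.1% of the summed collagen TPM on drug, 26.1% off drug and 27.1% in parental cells. COL1A1 ranked second on drug, COL13A1 second off drug and COL8A1 second in parental cells.

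The summed TPM of the 44 genes was 125, 98.4 and 127 in the on-drug libraries, 90.1, 105 and 80.7 in the off-drug libraries, and 55.0, 61.1 and 58.6 in the parental libraries. Every resistant library lay above every parental library, and the on-drug and off-drug libraries overlapped. The means were 117 ± 16 TPM on drug, 92.1 ± 12.4 TPM off drug and 58.2 ± 3.09 TPM in parental cells (SD, n = 3 each). Without COL18A1 they were 72.2 ± 8.12, 68.2 ± 10.6 and 42.4 ± 2.22 TPM in the same order of states. The make-up of the pool also differed between states. Fibril-forming chains summed to 19.4 ± 0.777 TPM on drug, 5.25 ± 1.27 off drug and 8.65 ± 1.48 in parental cells. Of this, COL1A1 gave 15.7, 4.38 and 7.48 TPM. Chains that span the cell membrane summed to 4.25 ± 0.736 TPM on drug, 23.0 ± 2.88 off drug and 6.96 ± 1.5 in parental cells. Of these, COL13A1 averaged 2.15, 19.2 and 1.77 TPM and COL17A1 2.02, 3.76 and 5.09 TPM, so single genes weigh heavily in these class sums. In bulk RNA such as this, fewer cells making a transcript and less of it per cell cannot be told apart.

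**Figure D1:**
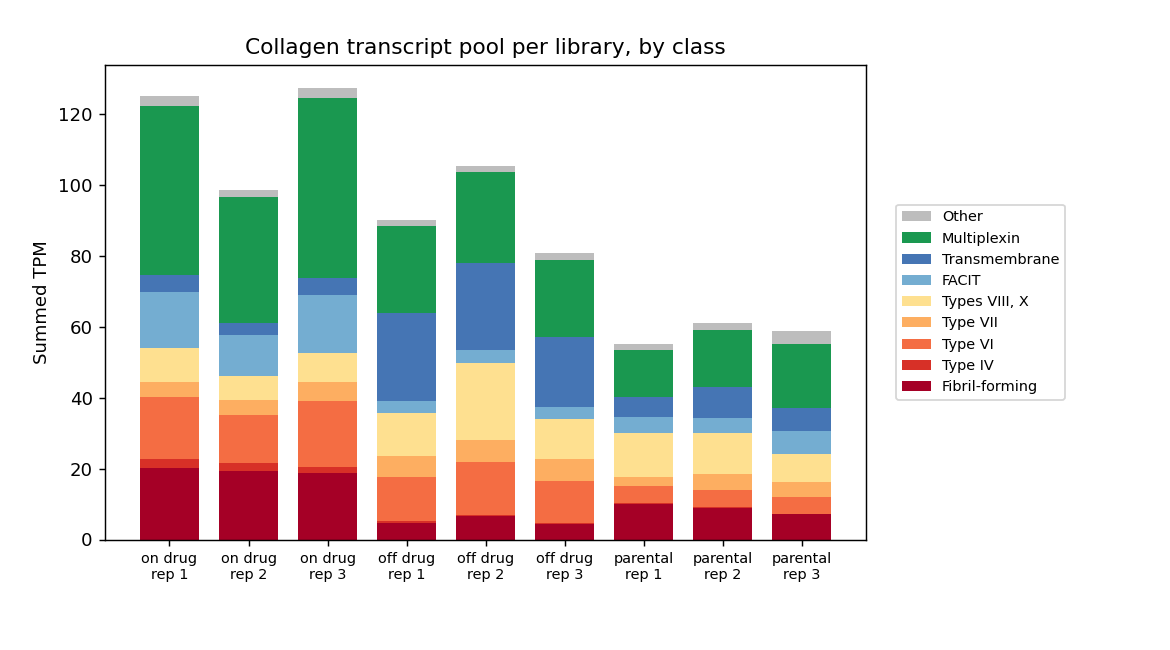
Summed TPM of the collagen chain genes in each of the 9 libraries, stacked by structural class (TPM on the vertical axis, 1 bar per library, on drug at left, then off drug and parental). The off-drug bars carry a broad transmembrane band, 23.0 TPM on average with 19.2 TPM from COL13A1. The on-drug bars carry the largest fibril-forming and multiplexin bands.

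The libraries held 25698500 to 34727826 estimated counts. A floor of 3 counts in a library corresponded to 0.0776 to 0.123 CPM, here the counts scaled to a common library size with TMM factors, and floors and count intervals here cover counting error only. On-drug replicate 2 and parental replicate 3 stood furthest from the other libraries of their states, with chi-square values per degree of freedom of 21.4 to 32.2 and of 21.0 to 21.1 against them, where the other replicate pairs gave 5.11 to 12.8. Epithelial markers were abundant in every state, with summed levels of 4500.1 to 5333 CPM on drug, 7203 to 7400.2 CPM off drug and 7332 to 8961 CPM in parental cells. Of the 10, the surfactant gene SFTPB was at 0 in all libraries. Of the 10 fibroblast markers, DPT and PDPN were at 0 throughout and 6 passed the count filter. Their sum was 126 to 182 CPM on drug, 50.6 to 62.0 CPM off drug and 85.8 to 99.7 CPM in parental cells, of which LUM gave 89.3 CPM on drug. Markers of smooth muscle and pericytes summed to 93.6 to 117, 40.8 to 46.6 and 83.5 to 103 CPM in the 3 states, endothelial markers to 15.6 to 21.1, 54.0 to 55.5 and 11.3 to 14 CPM, chondrocyte markers to 158 to 180, 123 to 132 and 58.5 to 76.1 CPM, and leukocyte markers to 8.08 to 9.45, 73.4 to 81.2 and 60.6 to 70.6 CPM. The highest member was NOTCH3 in the smooth muscle and pericyte list, at 73.6, 31.9 and 82.8 CPM in the 3 states. In the leukocyte list it was CD68, at 6.66, 73.6 and 59.3 CPM. Members of a list also went opposite ways between on-drug and off-drug cells. HAPLN1 averaged 119 and 4.27 CPM and SOX9 46.3 and 122 CPM in the chondrocyte list. In the endothelial list CDH5 averaged 2.08 and 0.222 CPM and KDR 11.9 and 20.5 CPM. CNMD of the chondrocyte list was at 0 throughout, and PTPRC, the general leukocyte marker, stayed below 1 CPM. The part that such cells could have in the collagen results was not tested.

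Between on-drug and off-drug cells, which asks what went with drug exposure in the resistant line, 18 collagen genes were called higher and 5 lower among the 31 that passed the count filter (edgeR quasi-likelihood test, Benjamini-Hochberg adjusted over 17307 genes). Of all genes tested, 31.4% were called higher and 31.2% lower. Between off-drug and parental cells, which asks what set the resistant line apart without drug, 14 were called higher and 7 lower, against 28.4% and 26.6% of all genes. Between on-drug and parental cells, 22 were called higher and 4 lower, against 33.4% and 32.9% of all genes. The median log2 fold change of the 31 genes was 1.13, 0.35 and 2.05 in the 3 comparisons, or 1.43 in the last with genes absent from parental libraries set at their lower bound, beside 0.02, 0.00 and 0.02 for all genes. These medians and counts are not support for a direction, because the filter let in genes through their on-drug libraries, which favours genes that are higher there. For 8 of the 31, the on-drug state was the only one with all 3 libraries at the cutoff: COL1A2, COL3A1, COL4A6, COL8A2, COL11A1, COL11A2, COL14A1 and COL24A1. COL11A2 also reached the cutoff in libraries of the other states, such as off-drug replicates 1 and 2 with 13 and 24 counts. COL4A3, COL21A1 and COL26A1 passed in on-drug and parental cells, COL6A3, COL9A2, COL16A1 and COL27A1 in on-drug and off-drug cells, COL15A1 and COL19A1 in no state alone, and the other 14 in every state. Libraries of the 2 states did not overlap, higher and lower, for 19 and 6 of the 31 genes on drug against off drug (34.3% and 33.4% of all genes, 67.6% either way), 14 and 9 off drug against parental cells (31.9% and 29.9%, 61.9% either way), and 21 and 5 on drug against parental cells (35.2% and 33.9%, 69.0% either way). Called either way were 23, 21 and 26 of the 31 genes, against 62.6%, 55.0% and 66.3% of all genes. The comparisons share libraries, so they are not independent of each other.

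With so many genes called, the scaling matters. With library size alone the median of all genes moved by 0.26 between on-drug and off-drug cells and by 0.22 between on-drug and parental cells, and upper-quartile factors moved the first by 0.13. The share of called genes that were higher with library size alone was 68.5% instead of 50.1% for the first comparison and 64.3% instead of 50.4% for the second. For the collagen genes it was 79.2% instead of 78.3% and 88.0% instead of 84.6%. The filter that favours genes higher on drug applies to these collagen shares too. With log2(TPM + 1) and a mean of at least 1 TPM, 12 collagen genes were left. Their share was 62.5% against 64.0% for all genes in the first comparison. In the second it was above the 69.7% for all genes. With log2(TPM + 0.1) on all genes above 0, the collagen share was 80.0% and 90.5%, against 67.3% and 70.6% for all genes. Of the 31 genes, COL6A2, COL8A2, COL9A2, COL12A1, COL16A1 and COL18A1 were called higher in all 3 comparisons, and COL17A1 was called lower in all 3. COL1A1, COL4A3, COL5A1 and COL24A1 were lower off drug than in parental cells and higher on drug than in either. Among these, COL8A2 and COL24A1 passed the filter through the on-drug libraries alone. COL6A3, COL7A1, COL8A1 and COL13A1 were higher off drug than in parental cells and lower on drug than off drug.

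**Figure D2:**
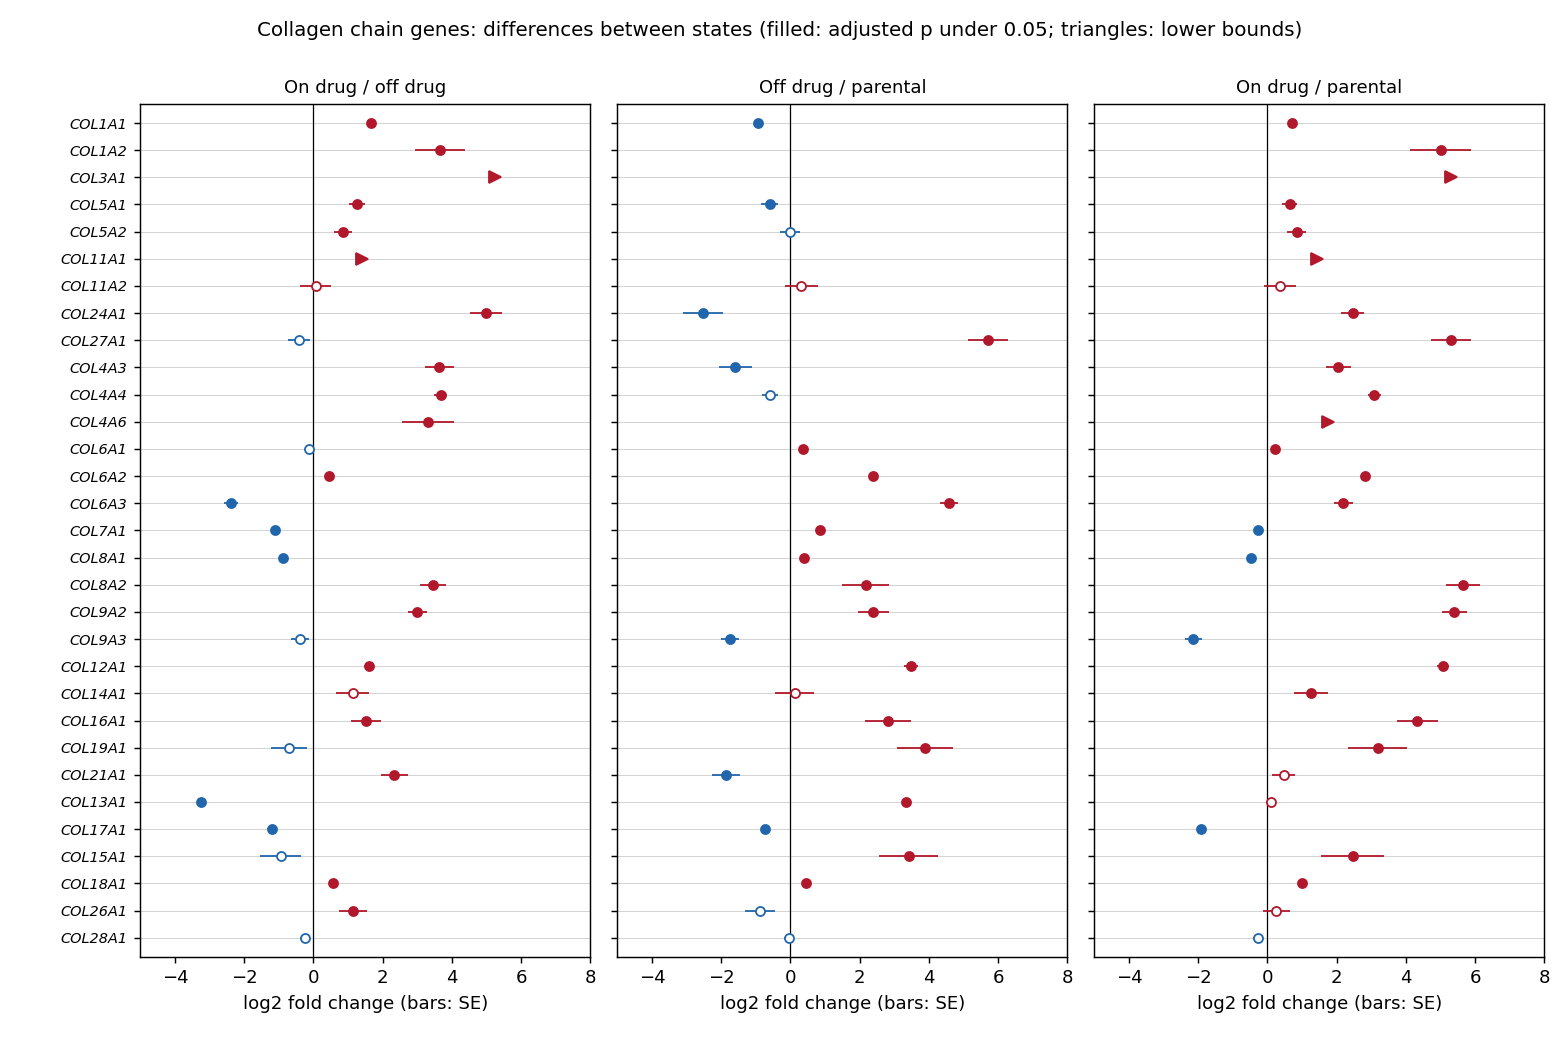
Log2 fold changes with standard errors (horizontal axis) of the collagen chain genes that passed the count filter, for on drug over off drug (left), off drug over parental (middle) and on drug over parental (right). Filled points have an adjusted p under 0.05, triangles are lower bounds for genes at 0 in 1 state, and pairs of states that are both at or under 3 counts per library are not drawn. The points of COL13A1 lie at -3.25, 3.35 and 0.10 from left to right.

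Of 11 fibril-forming chains, 9 passed the filter, and COL1A2, COL3A1, COL11A1 and COL24A1 passed it through the on-drug libraries alone. COL1A1, COL5A1 and COL5A2, which passed in every state, were called higher on drug than off drug, and so were COL1A2, COL3A1, COL11A1 and COL24A1, while 31.4% of all genes were called higher. COL1A1 (chr17:50183289-50201632, minus strand, GRCh38), the main chain of type I collagen, had 44.4, 40.6 and 46.7 CPM on drug, 12.7, 15.3 and 13.9 CPM off drug, and 25.9, 28.9 and 25.1 CPM in parental cells. The 3 states did not overlap, and the off-drug libraries were the lowest. It was 3.15-fold higher on drug than off drug (log2 fold change 1.65, SE 0.10, edgeR adjusted p = 5.6e-10), 1.91-fold lower off drug than in parental cells (-0.93, SE 0.10, adjusted p = 9.2e-07) and 1.65-fold higher on drug than in parental cells (0.72, SE 0.09, adjusted p = 4.4e-06). COL1A2, the partner chain that completes the usual type I molecule, was far lower, at 16, 18 and 25 counts on drug, 0, 2 and 1 off drug, and 0, 1 and 0 in parental cells. Its summed counts scaled for library size were 13.9 times higher on drug than off drug (exact 95% interval 4.54 to 69.5). On drug against parental cells this ratio was 42.6 (7.36 to 1712). The fitted log2 differences were 3.66 and 5.0, and the first was 4.59 without off-drug replicate 2. Without parental replicate 2 the second was 7.04, but the parental libraries left were at 0, so the counts do not set its size. In TPM, COL1A1 exceeded COL1A2 by 58.0 to 141 times in the on-drug libraries. The summed fibroblast markers were also higher on drug, at 126 to 182 CPM, than off drug, at 50.6 to 62.0 CPM. In that sum LUM averaged 89.3 CPM on drug and 2.05 off drug, and S100A4 averaged 59.5 and 52.2 CPM. Every other marker of the list averaged at most 2.52 CPM in both states. The part of these markers in the collagen differences was not tested.

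COL3A1 (chr2:188974320-189012746, plus strand), the chain of the type III homotrimer that runs with type I in soft tissue, had 197, 162 and 175 counts on drug, 0 in every off-drug library and 0 in every parental library. Only the on-drug libraries held reads, at 5.15, 4.36 and 4.53 CPM. Against the highest floor of 3 counts in a library, it was at least 38.1-fold higher on drug than off drug and at least 39.0-fold higher on drug than in parental cells (edgeR adjusted p = 1.7e-08 and 1.4e-08). COL11A1, a chain of type XI collagen that starts fibrils in cartilage, had 13, 11 and 13 counts on drug and 0 in the 6 other libraries. It was at least 2.64-fold higher on drug than off drug and at least 2.70-fold higher on drug than in parental cells (adjusted p = 0.00057 and 0.00048). Its partner COL11A2 did not pass the test in any comparison, at 0.596 ± 0.0294 CPM on drug, 0.585 ± 0.368 off drug and 0.460 ± 0.159 in parental cells (SD, n = 3 each).

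COL5A1, the main chain of type V collagen, which sits inside type I fibrils and limits their width, had 3.03, 2.61 and 3.10 CPM on drug, 1.35, 1.47 and 0.899 CPM off drug, and 2.16, 1.64 and 1.79 CPM in parental cells. The on-drug libraries were the highest and the off-drug ones the lowest, with no overlap. Its log2 fold change was 1.25 on drug against off drug (SE 0.23, edgeR adjusted p = 0.00023), -0.60 off drug against parental cells (SE 0.24, adjusted p = 0.047) and 0.64 on drug against parental cells (SE 0.22, adjusted p = 0.018). The off-drug call was lost when any of 6 libraries was left out (adjusted p up to 0.20, without off-drug replicate 3), and with DESeq2 (adjusted p = 0.06). The on-drug call against parental cells was lost without on-drug replicate 1, on-drug replicate 3 or parental replicate 2 (adjusted p = 0.057, 0.065 and 0.066). COL5A2, the second type V chain, was called higher on drug, at 1.84 ± 0.274 CPM, than off drug, at 1.01 ± 0.206 CPM, and than in parental cells, at 1.02 ± 0.247 CPM (log2 fold change 0.85 and 0.84, edgeR adjusted p = 0.013 for both). Those COL5A2 calls were lost without on-drug replicate 1 (0.052 and 0.057), the first also without off-drug replicate 2 (0.053) and the second without parental replicate 3 (0.056). The length estimated for COL5A1 differed up to 7.29-fold between libraries.

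COL24A1 and COL27A1, fibril-forming chains of cartilage and developing bone, moved in different ways. COL24A1 averaged 1.69 ± 0.246 CPM on drug, 0.0483 ± 0.0138 CPM off drug and 0.306 ± 0.0389 CPM in parental cells, and the states did not overlap. The off-drug level rests on 1, 1 and 2 counts. COL24A1 was higher on drug than off drug (log2 fold change 4.99, SE 0.46, edgeR adjusted p = 1.1e-07), lower off drug than in parental cells (-2.53, SE 0.57, adjusted p = 0.0013) and higher on drug than in parental cells (2.46, SE 0.34, adjusted p = 9e-06). On the log2(TPM + 0.1) scale these were 1.86, -0.41 and 1.45, and the middle call was lost (adjusted p = 0.24). COL27A1 had 36, 47 and 43 counts on drug, 28, 37 and 56 off drug, and 0, 1 and 1 in parental cells. Its scaled count was 61.7 times higher off drug than in parental cells (exact 95% interval 16.7 to 515) and 45.5 times higher on drug than in parental cells (12.3 to 379.9), with adjusted p = 4.8e-07 and 7.4e-07, and the log2 differences were 5.12 and 4.70 without parental replicate 1. On drug against off drug COL27A1 did not pass the test (log2 fold change -0.42, adjusted p = 0.25).

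**Figure D3:**
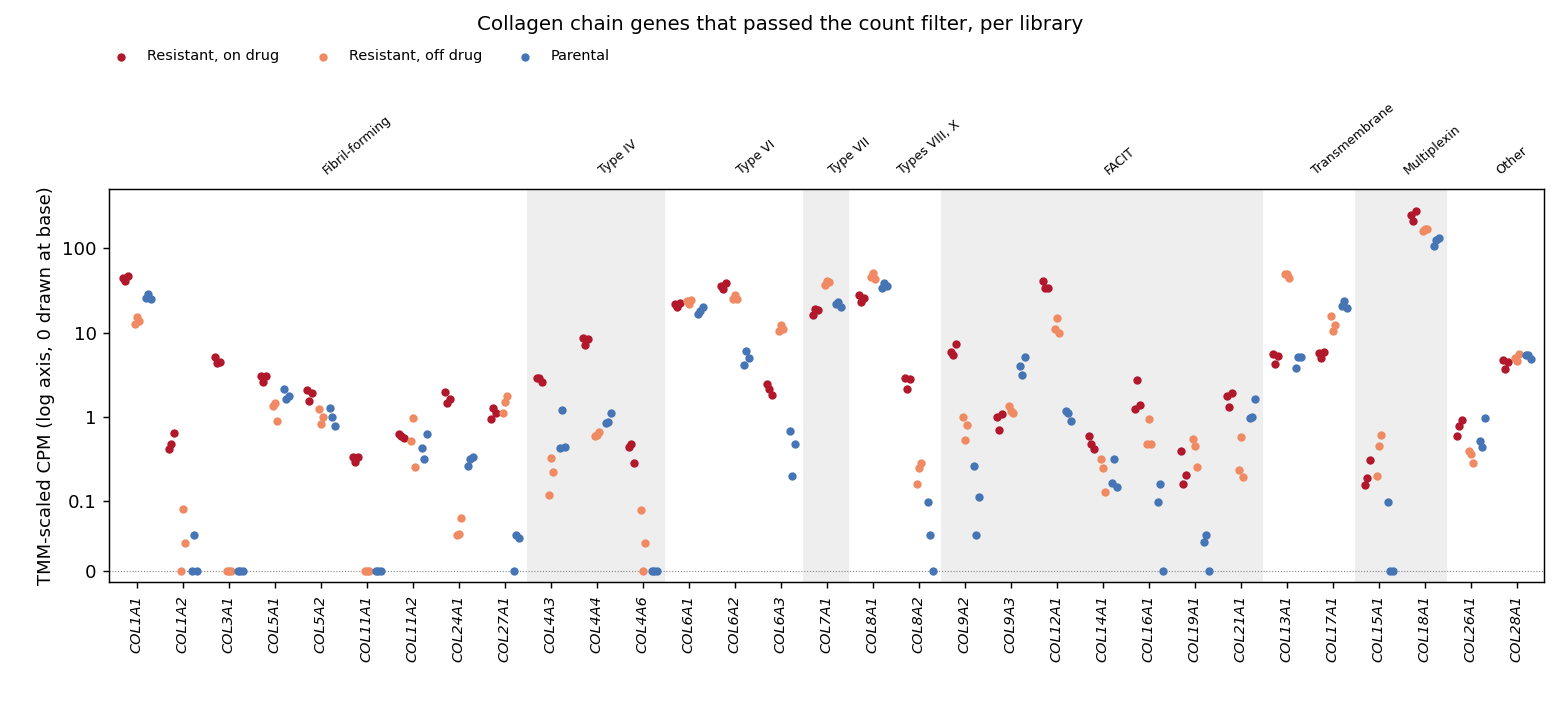
TMM-scaled CPM of the 31 collagen chain genes that passed the count filter in each library (log vertical axis with 0 drawn at the base, 1 point per library, on drug left of off drug and parental for each gene), grouped by structural class. COL3A1 and COL11A1 have points above 0 only in the on-drug libraries, and COL13A1 off drug, at 45.0 to 49.9 CPM, stands above its other 6 points.

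Type IV collagen, the sheet of the basement membrane, is built from COL4A1 and COL4A2 in most tissues and from COL4A3, COL4A4 and COL4A5 in the kidney glomerulus and the lung alveolus. COL4A1 was at 0 in all libraries, and COL4A2 reached at most 15 counts in a library (on drug) and was not tested. COL4A3, COL4A4 and COL4A6 passed the filter, COL4A6 through the on-drug libraries alone, and were called higher on drug than off drug, as were 31.4% of all genes. COL4A4 (chr2:227002711-227164453, minus strand) had 8.55, 7.21 and 8.44 CPM on drug, 0.595, 0.614 and 0.674 CPM off drug, and 0.850, 0.882 and 1.12 CPM in parental cells. The on-drug libraries stood apart from the rest, and COL4A4 was 12.7-fold higher on drug than off drug (log2 fold change 3.67, SE 0.20, edgeR adjusted p = 2.2e-10) and 8.48-fold higher on drug than in parental cells (3.08, SE 0.19, adjusted p = 6.7e-10). Off drug against parental cells it missed the threshold at -0.59 (SE 0.24, adjusted p = 0.051), and passed it with RLE factors (adjusted p = 0.048), upper-quartile factors (0.025), library size only (0.037) or a minimum count of 30 (0.042), and without on-drug replicate 2 (0.047) or parental replicate 1 (0.050).

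COL4A3 (chr2:227164565-227314792, plus strand), which lies head to head with COL4A4, had 2.93, 2.91 and 2.61 CPM on drug, 0.119, 0.328 and 0.225 CPM off drug, and 0.425, 1.20 and 0.447 CPM in parental cells. It was 12.4-fold higher on drug than off drug (log2 fold change 3.63, SE 0.42, adjusted p = 1.5e-06) and 4.13-fold higher on drug than in parental cells (2.05, SE 0.35, adjusted p = 9e-05). Off drug it was lower than in parental cells (-1.59, SE 0.48, adjusted p = 0.011), a call that ended without parental replicate 2 (-0.95, adjusted p = 0.088) and turned positive on the log2(TPM + 0.1) scale (0.37, adjusted p = 0.70). Without that library the on-drug excess over parental cells was 2.68. COL4A6 had 17, 18 and 11 counts on drug, 2, 0 and 1 off drug and 0 in the parental libraries, so it was 10.9 times higher on drug than off drug (exact 95% interval 3.49 to 54.6) and at least 3.37-fold higher on drug than in parental cells (edgeR adjusted p = 0.0018 and 0.00018). The first log2 difference was 3.31 with all libraries and 4.22 without off-drug replicate 1.

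The RefSeq starts of COL4A3 and COL4A4 lie 418 bases apart on opposite strands, and the windows from 250 bases before to 50 after each start share 82 bases. They are shown because these neighbouring genes were both called higher on drug (GRCh38.p14, chr2:227164374-227164455, plus strand, RefSeq).
COL4A3 and COL4A4 shared: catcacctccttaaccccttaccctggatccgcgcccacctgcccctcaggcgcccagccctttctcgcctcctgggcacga
None of the 5 motifs searched in the promoter windows falls in this stretch.

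Type VI collagen forms beaded filaments around cells from COL6A1, COL6A2 and a longer chain, usually COL6A3. All 3 were called higher off drug than in parental cells and higher on drug than in parental cells, beside 28.4% and 33.4% of all genes. COL6A2 (chr21:46098097-46132849, plus strand) had 35.9, 32.6 and 38.3 CPM on drug, 25.1, 27.8 and 25.1 CPM off drug, and 4.15, 6.01 and 4.95 CPM in parental cells. The 3 states did not overlap. It was 5.19-fold higher off drug than in parental cells (log2 fold change 2.38, SE 0.12, edgeR adjusted p = 4e-10), 1.37-fold higher on drug than off drug (0.45, SE 0.11, adjusted p = 0.0015) and 7.11-fold higher on drug than in parental cells (2.83, SE 0.12, adjusted p = 1.3e-11). COL6A1 (chr21:45981737-46005050, plus strand) had 22.1, 20 and 22.2 CPM on drug, 23.6, 22 and 24.4 CPM off drug, and 16.8, 18.0 and 20 CPM in parental cells. Its differences were small, with log2 fold changes of 0.35 off drug against parental cells (adjusted p = 0.0045) and 0.23 on drug against parental cells (adjusted p = 0.038). The second was lost when any 1 of 6 libraries was left out (adjusted p up to 0.17, without parental replicate 1), and the on-drug and parental libraries overlapped. On drug against off drug COL6A1 was at -0.12 (adjusted p = 0.25), with a positive sign under upper-quartile factors (0.01) and library size only (0.13).

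COL6A3 (chr2:237324003-237414375, minus strand) had 2.48, 2.15 and 1.84 CPM on drug, 10.4, 12.4 and 11.2 CPM off drug, and 0.687, 0.200 and 0.484 CPM in parental cells. The off-drug libraries were the highest and the parental ones the lowest. It was 23.9-fold higher off drug than in parental cells (log2 fold change 4.58, SE 0.25, edgeR adjusted p = 7.5e-10), 5.24-fold lower on drug than off drug (-2.39, SE 0.20, adjusted p = 3.3e-08) and 4.56-fold higher on drug than in parental cells (2.19, SE 0.28, adjusted p = 4e-06). The balance of the chains differed between states. COL6A1 had 0.592 to 0.723 times the TPM of COL6A2 on drug, 0.665 to 0.999 times off drug and 2.73 to 4.85 times in parental cells. COL6A3 had 0.0588 to 0.0755 times the TPM of COL6A1 on drug, 0.336 to 0.419 times off drug and 0.0192 to 0.0646 times in parental cells. The TPM values of COL6A3 rest on a length that the authors' tool estimated per library and that differed up to 4.12-fold between libraries.

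**Figure D4:**
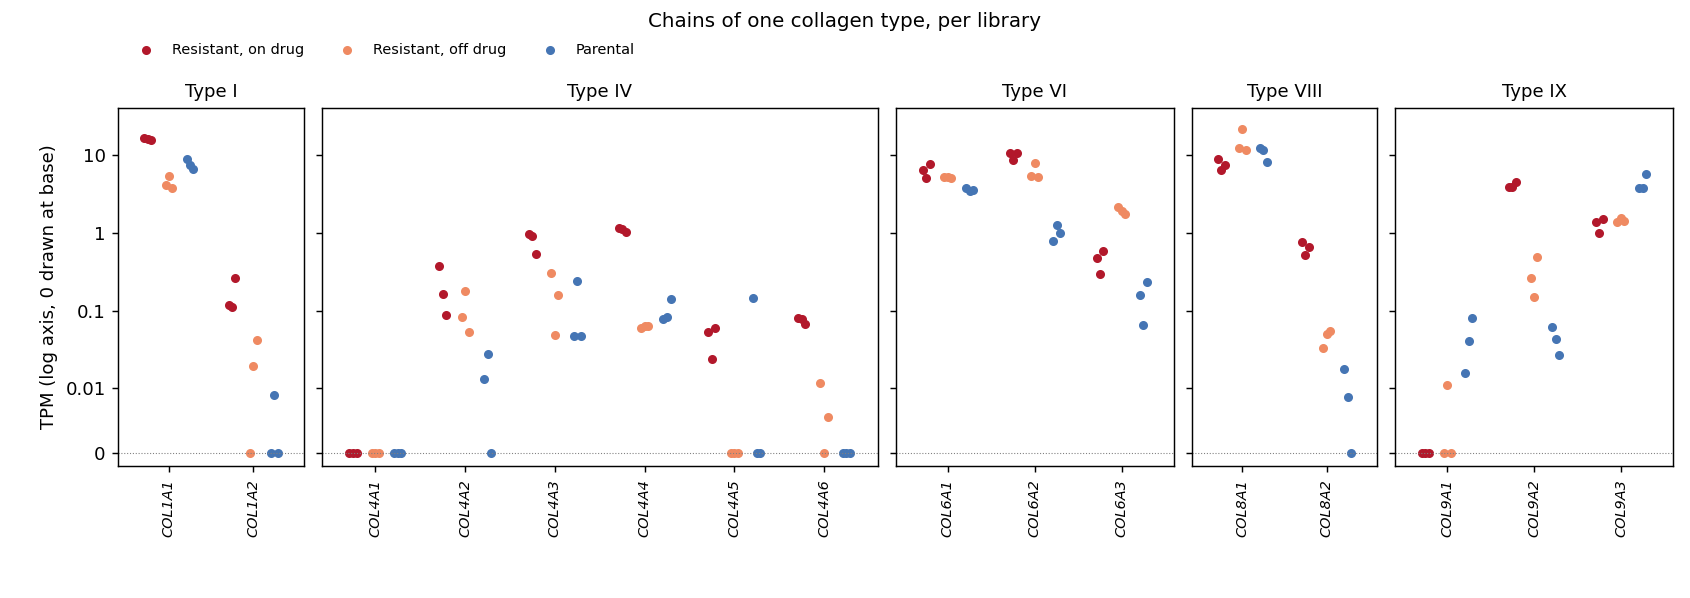
TPM per library (log vertical axis with 0 drawn at the base) of the chains of collagen types I, IV, VI, VIII and IX, with 1 point per library and on drug left of off drug and parental for each gene. COL4A1 lies at 0 in all 9 libraries, and COL9A2 lies above COL9A3 on drug and below it in the off-drug and parental libraries.

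The type VII chain was highest off drug. COL7A1 (chr3:48564073-48595267, minus strand), the anchoring fibril chain that ties epithelium to the tissue beneath, had 16.4, 19.0 and 18.7 CPM on drug, 36.5, 41.3 and 40.1 CPM off drug, and 21.9, 23.0 and 20.3 CPM in parental cells. The 3 states did not overlap, and it was 2.18-fold lower on drug than off drug (log2 fold change -1.12, SE 0.09, edgeR adjusted p = 2.6e-08) and 1.81-fold higher off drug than in parental cells (0.85, SE 0.09, adjusted p = 1e-06). On drug it was slightly lower than in parental cells (-0.27, SE 0.09, adjusted p = 0.017), which did not hold without on-drug replicate 1 or parental replicate 2 (adjusted p = 0.071 for both) or with library size only (-0.05, adjusted p = 0.67), and was positive on the log2(TPM + 1) scale (0.21, adjusted p = 0.26). On that scale the on-drug difference from off-drug cells also missed the threshold (-0.36, adjusted p = 0.068).

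COL8A1 (chr3:99638475-99799226, plus strand), a short chain that forms networks in vessel walls and the cornea, had 28.2, 22.9 and 25.7 CPM on drug, 46.3, 50.9 and 43.7 CPM off drug, and 33.6, 38.6 and 36.0 CPM in parental cells. The states did not overlap. It was 1.83-fold lower on drug than off drug (log2 fold change -0.87, SE 0.10, edgeR adjusted p = 9.4e-07), 1.30-fold higher off drug than in parental cells (0.38, SE 0.10, adjusted p = 0.0031) and 1.41-fold lower on drug than in parental cells (-0.49, SE 0.10, adjusted p = 0.00031). The last 2 missed the threshold on the log2(TPM + 1) scale (adjusted p = 0.12 and 0.086). Its partner COL8A2 went the other way between on-drug and off-drug cells, with 110, 81 and 108 counts on drug, 4, 6 and 9 off drug, and 3, 1 and 0 in parental cells. COL8A2 passed the count filter through the on-drug libraries alone, which favours genes higher there. Neither the off-drug nor the parental state met the cutoff. COL8A2 was called higher on drug than off drug (log2 fold change 3.46, SE 0.38, adjusted p = 8.2e-07), higher off drug than in parental cells (2.18, SE 0.68, adjusted p = 0.013) and higher on drug than in parental cells (5.64, SE 0.49, adjusted p = 4.5e-08). Without parental replicate 1 the last 2 were 3.35 and 6.81, and on the log2(TPM + 0.1) scale the off-drug call was lost (0.43, adjusted p = 0.32). COL8A1 exceeded COL8A2 in TPM by 11.3 to 12.1 times on drug and by 204 to 435 times off drug.

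FACIT collagens attach to the surface of fibrils through interrupted helices. Of 7 that passed the filter, COL9A2, COL12A1, COL16A1 and COL21A1 were called higher on drug than off drug, beside 31.4% of all genes. COL12A1 (chr6:75084326-75206051, minus strand), which links type I fibrils to the surrounding matrix, had 40.8, 33.6 and 33.9 CPM on drug, 11.2, 14.8 and 9.89 CPM off drug, and 1.18, 1.12 and 0.894 CPM in parental cells. The states formed 3 steps without overlap. It was 11.1-fold higher off drug than in parental cells (log2 fold change 3.48, SE 0.19, edgeR adjusted p = 6.2e-10), 3.03-fold higher on drug than off drug (1.60, SE 0.13, adjusted p = 3.2e-08) and 33.7-fold higher on drug than in parental cells (5.07, SE 0.18, adjusted p = 1.5e-12). The length estimated for COL12A1 differed up to 4.27-fold between libraries, and on the log2(TPM + 0.1) scale the first 2 differences were 2.13 and 2.72, with 0.78 and 2.03 on the log2(TPM + 1) scale, so how the rise is divided between the steps depends on the unit.

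COL9A2 (chr1:40300487-40317813, minus strand), a chain of the type IX collagen that coats cartilage fibrils, had 5.96, 5.44 and 7.32 CPM on drug, 0.992, 0.532 and 0.802 CPM off drug, and 0.262, 0.0401 and 0.112 CPM in parental cells. It was 7.98-fold higher on drug than off drug (log2 fold change 3.00, SE 0.27, edgeR adjusted p = 1.1e-07), 5.26-fold higher off drug than in parental cells (2.39, SE 0.45, adjusted p = 0.00031) and 42.0-fold higher on drug than in parental cells (5.39, SE 0.36, adjusted p = 2e-09). Without parental replicate 1 the last 2 were 3.27 and 6.26, and on the log2(TPM + 1) scale the off-drug difference missed the threshold (0.31, adjusted p = 0.10). Another type IX chain, COL9A3 (chr20:62816244-62841159, plus strand), ran the opposite way, with 0.994, 0.700 and 1.09 CPM on drug, 1.35, 1.19 and 1.12 CPM off drug, and 4.06, 3.13 and 5.14 CPM in parental cells. COL9A3 was 3.37-fold lower off drug than in parental cells (-1.75, SE 0.25, adjusted p = 2.2e-05) and 4.41-fold lower on drug than in parental cells (-2.14, SE 0.25, adjusted p = 1.4e-06). Between on-drug and off-drug cells it did not pass the test (-0.39, adjusted p = 0.22). The TPM of COL9A2 was 2.84 to 3.85 times that of COL9A3 on drug, 0.0992 to 0.347 times off drug and 0.00469 to 0.0168 times in parental cells. The parental ratios, and the folds of COL9A2 over parental cells, rest on its 8, 1 and 3 counts there. Parental replicates 2 and 3 were at or under the floor of 3 counts. The remaining type IX chain, COL9A1, had at most 5 counts in a library and was not tested.

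The 250 bases before the RefSeq starts of COL12A1 and COL9A2 are shown as examples (GRCh38.p14, minus strand, read 5′ to 3′ toward the gene, RefSeq). They are 2 of the 6 genes called higher at each step from parental to off-drug to on-drug cells, and the others are not shown. COL12A1 is at chr6:75206054-75206303 and COL9A2 at chr1:40317287-40317536. Capitals mark matches to GC boxes (GGGCGG or CCGCCC) and, in COL12A1, 1 match to GGAATG.
COL12A1: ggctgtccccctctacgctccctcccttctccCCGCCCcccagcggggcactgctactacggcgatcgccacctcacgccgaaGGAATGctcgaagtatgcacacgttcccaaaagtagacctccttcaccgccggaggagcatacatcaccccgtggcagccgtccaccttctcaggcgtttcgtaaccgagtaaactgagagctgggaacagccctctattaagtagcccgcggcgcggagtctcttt
COL9A2: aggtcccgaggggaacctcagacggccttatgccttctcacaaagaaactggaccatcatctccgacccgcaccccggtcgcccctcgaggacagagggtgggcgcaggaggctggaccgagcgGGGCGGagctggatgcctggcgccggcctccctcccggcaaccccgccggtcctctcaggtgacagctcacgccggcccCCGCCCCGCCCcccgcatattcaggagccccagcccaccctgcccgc
In COL9A2 the longer run of capitals holds 2 GC boxes that share a base.

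The other FACIT chains were low. COL16A1 averaged 1.79 ± 0.807 CPM on drug, 0.633 ± 0.267 CPM off drug and 0.0861 ± 0.0808 CPM in parental cells, and was called higher on drug than off drug (log2 fold change 1.51, edgeR adjusted p = 0.0068), off drug than in parental cells (2.82, adjusted p = 0.002) and on drug than in parental cells (4.33, adjusted p = 8.8e-06). On-drug replicate 2, at 2.72 CPM, was above the other on-drug libraries at 1.26 and 1.40 CPM, and without it the first call was lost (1.08, adjusted p = 0.071). Without parental replicate 2 the other 2 differences were 3.49 and 5.0. COL21A1, which is made in vessel walls, averaged 1.67 ± 0.312 CPM on drug, 0.335 ± 0.208 CPM off drug and 1.21 ± 0.373 CPM in parental cells. It was higher on drug than off drug (2.34, adjusted p = 8.4e-05) and lower off drug than in parental cells (-1.87, adjusted p = 0.0011), and these were 2.95 and -2.49 without off-drug replicate 2. The second COL21A1 call was lost on the log2(TPM + 0.1) scale (-1.08, adjusted p = 0.079), and on drug against parental cells the gene did not pass the test (0.47, adjusted p = 0.22).

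COL19A1 had 15, 6 and 8 counts on drug, 14, 11 and 8 off drug, and 1, 1 and 0 in parental cells. It was 16.8 times higher off drug than in parental cells (exact 95% interval 4.30 to 145) and 10.5 times higher on drug than in parental cells (2.65 to 90.6), with edgeR adjusted p = 0.00078 and 0.0036, the second of which was 0.093 on the log2(TPM + 0.1) scale. COL14A1 averaged 0.50 ± 0.0947 CPM on drug, 0.231 ± 0.0954 CPM off drug and 0.211 ± 0.0952 CPM in parental cells, and passed the filter through the on-drug libraries alone. Its on-drug difference from parental cells was called (log2 fold change 1.25, adjusted p = 0.033) but not with DESeq2 (adjusted p = 0.077), on the log2(TPM + 0.1) scale (0.13), or without on-drug replicate 1 or 2 or parental replicate 1 or 3 (adjusted p = 0.064 to 0.12). Its on-drug difference from off-drug cells narrowly missed the threshold (1.13, adjusted p = 0.052) and passed it with limma voom (0.04), upper-quartile factors (0.031) and library size only (0.02).

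The 2 membrane-spanning collagens that passed the filter were both called lower on drug than off drug, as were 31.2% of all genes. COL13A1 (chr10:69801867-69964275, plus strand), found at cell adhesion sites and at the neuromuscular junction, had 5.57, 4.25 and 5.36 CPM on drug, 49.8, 49.9 and 45.0 CPM off drug, and 3.86, 5.13 and 5.21 CPM in parental cells. The off-drug libraries alone were high, and the on-drug and parental libraries overlapped. It was 10.2-fold higher off drug than in parental cells (log2 fold change 3.35, SE 0.13, edgeR adjusted p = 1.8e-11) and 9.52-fold lower on drug than off drug (-3.25, SE 0.12, adjusted p = 3.3e-12). On drug against parental cells the difference did not pass the test (0.10, SE 0.14, adjusted p = 0.52). COL13A1 made up 1.82% of the summed collagen TPM on drug, 20.8% off drug and 3.02% in parental cells.

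COL17A1 (chr10:104031286-104085957, minus strand), the hemidesmosome collagen that holds basal epithelial cells to the basement membrane, had 5.75, 5.06 and 5.95 CPM on drug, 15.6, 10.6 and 12.2 CPM off drug, and 20.7, 23.5 and 19.6 CPM in parental cells. The parental libraries were the highest and the on-drug ones the lowest, without overlap. It was 2.28-fold lower on drug than off drug (log2 fold change -1.19, SE 0.14, edgeR adjusted p = 1.6e-06), 1.66-fold lower off drug than in parental cells (-0.73, SE 0.13, adjusted p = 0.00017) and 3.80-fold lower on drug than in parental cells (-1.92, SE 0.13, adjusted p = 4e-09). The middle difference missed the threshold on the log2(TPM + 1) scale (-0.34, adjusted p = 0.058), where the last was -1.0.

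The 250 bases before the RefSeq starts of both membrane collagens are shown because both genes were called lower on drug than off drug while they went opposite ways between off-drug and parental cells (GRCh38.p14, RefSeq). COL13A1 is at chr10:69801656-69801905 on the plus strand and COL17A1 at chr10:104085881-104086130 on the minus strand, and both are read 5′ to 3′ toward the gene. Capitals mark TATAAA and, in COL17A1, ATTGG, which reads CCAAT on the other strand.
COL13A1: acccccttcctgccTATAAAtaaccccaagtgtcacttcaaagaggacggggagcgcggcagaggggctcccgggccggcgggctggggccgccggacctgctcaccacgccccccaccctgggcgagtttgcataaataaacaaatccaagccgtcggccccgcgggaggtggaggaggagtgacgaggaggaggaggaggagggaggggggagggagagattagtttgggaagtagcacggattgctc
COL17A1: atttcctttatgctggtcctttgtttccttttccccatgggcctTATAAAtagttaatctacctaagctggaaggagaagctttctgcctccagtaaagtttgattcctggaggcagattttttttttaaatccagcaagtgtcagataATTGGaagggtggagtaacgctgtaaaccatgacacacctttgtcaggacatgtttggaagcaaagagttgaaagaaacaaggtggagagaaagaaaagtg
A match is a description of letters, not of a working site.

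Promoter windows of 250 bases before to 50 after a start were on hand for 32 of the 44 genes, with 44 windows in all, from the RefSeq table of 35116 windows. TATAAA on either strand was in 18.2% of the collagen windows and 11.5% of all windows, CCAAT in 31.8% and 34.6%, and GGGCGG in 54.5% and 45.0%. TGANTCA, the AP-1 motif, was in 2.27% of the collagen windows and 7.71% of all, and GGAATG, the TEAD motif, in 6.82% and 14%. Both strands were searched, none of the motifs contains another, and several genes have more than 1 window. These shares are descriptions and carry no test.

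COL18A1 (chr21:45405137-45513720, plus strand), a multiplexin of basement membranes, had 247, 213 and 273 CPM on drug, 162, 171 and 169 CPM off drug, and 106, 125 and 134 CPM in parental cells. The states rose in steps from parental to off-drug to on-drug cells, without overlap. It was 1.46-fold higher on drug than off drug (log2 fold change 0.55, SE 0.10, edgeR adjusted p = 0.00018), 1.37-fold higher off drug than in parental cells (0.46, SE 0.10, adjusted p = 0.0011) and 2.01-fold higher on drug than in parental cells (1.01, SE 0.10, adjusted p = 2.6e-07). Its exons share 1401 bases (16.4%) with SLC19A1, a folate carrier gene on the opposite strand, which had 22.1, 12.2 and 10.6 CPM in on-drug, off-drug and parental cells. The strand setting of the counting is not stated, so reads from these genes cannot be told apart there. The related COL15A1 had 6, 7 and 12 counts on drug, 5, 11 and 19 off drug, and 3, 0 and 0 in parental cells. COL15A1 was 11.9 times higher off drug than in parental cells (exact 95% interval 3.75 to 60.5, adjusted p = 0.0029) and 6.02 times higher on drug than in parental cells (1.84 to 31.2, adjusted p = 0.025). The second was lost without on-drug replicate 3, parental replicate 2 or parental replicate 3 (adjusted p = 0.087 to 0.089) and on the log2(TPM + 0.1) scale (0.12). The fitted log2 differences were 3.42 and 2.47. Without parental replicate 1 they were 6.73 and 5.78, but the parental libraries left were at 0, so the counts do not set the size of these values.

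COL28A1, a chain with von Willebrand domains, did not pass the test in any comparison, at 4.33 ± 0.570 CPM on drug, 5.08 ± 0.50 CPM off drug and 5.24 ± 0.345 CPM in parental cells (SD, n = 3 each). Its on-drug difference from off-drug cells was -0.24 and turned to 0.02 with library size only. COL26A1 averaged 0.771 ± 0.165 CPM on drug, 0.351 ± 0.0560 CPM off drug and 0.644 ± 0.284 CPM in parental cells. It was called higher on drug than off drug (log2 fold change 1.14, edgeR adjusted p = 0.024), a call lost without on-drug replicate 2 or 3 or off-drug replicate 2 or 3 (adjusted p = 0.052 to 0.091) and on the log2(TPM + 0.1) scale (0.49). The 11 genes with counts that were not tested were COL2A1, COL4A2, COL4A5, COL5A3, COL6A5, COL6A6, COL9A1, COL10A1, COL20A1, COL23A1 and COL25A1. Of these COL4A2 reached 0.375 TPM in 1 on-drug library, COL2A1, the cartilage fibril chain, 0.205 TPM in another, and COL25A1 had 20 counts in parental replicate 1, while COL6A5 and COL20A1 had a single count in all.

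Genes that process and bind collagen were read from lists of the pathway in the same fit. Their counts stand beside 31.4% higher and 31.2% lower of all genes on drug against off drug, and 28.4% and 26.6% off drug against parental cells. Of 15 genes for hydroxylation and glycosylation, 4 were higher and 8 lower on drug than off drug, and 3 were higher and 7 lower off drug than in parental cells. P3H2, a prolyl 3-hydroxylase active on type IV collagen, averaged 129, 47.1 and 10.0 CPM on drug, off drug and in parental cells, and was higher on drug than off drug (log2 fold change 1.46, edgeR adjusted p = 3.5e-09) and off drug than in parental cells (2.22, adjusted p = 2.5e-10). P4HA1, a catalytic subunit of prolyl 4-hydroxylase, averaged 34.4, 60.6 and 122 CPM and was lower at both steps (-0.82 and -1.02, adjusted p = 1.2e-07 and 1.6e-08). P3H3 was lower at both steps as well (-0.99 and -0.57, adjusted p = 9e-05 and 0.0066).

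Of 11 genes for folding and export, 1 was higher and 6 were lower on drug than off drug (31.4% and 31.2% of all genes), and 8 were higher and 2 lower off drug than in parental cells (28.4% and 26.6% of all genes). SERPINH1, the collagen chaperone HSP47, averaged 314, 346 and 166 CPM on drug, off drug and in parental cells. It was higher off drug than in parental cells (1.06, edgeR adjusted p = 2.6e-07) and did not pass the test on drug against off drug (-0.14, adjusted p = 0.23). SEC24D, a coat protein of the vesicles that carry procollagen, averaged 66.9, 244 and 194 CPM and was lower on drug than off drug (-1.86, adjusted p = 5.2e-11), as were MIA2 (-1.24, adjusted p = 4.7e-09), FKBP14 (-1.19, adjusted p = 1.6e-08) and SEC23A (-1.16, adjusted p = 3.3e-09). SPARC, a collagen-binding matrix protein, averaged 293, 189 and 2.47 CPM and was higher off drug than in parental cells (6.25, adjusted p = 2.6e-15) and on drug than off drug (0.63, adjusted p = 2.7e-06). LUM, the fibril proteoglycan lumican and 1 of 2 tested among 8 such genes, averaged 89.3, 2.05 and 2.21 CPM and was higher on drug than off drug (5.43, adjusted p = 1.8e-12).

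Of 9 genes for procollagen processing, 3 were higher and 4 lower on drug than off drug (31.4% and 31.2% of all genes), and 1 was higher and 5 lower off drug than in parental cells (28.4% and 26.6% of all genes). BMP1, the protease that removes the C-terminal propeptide, averaged 65.8, 65.5 and 139 CPM on drug, off drug and in parental cells and was lower off drug than in parental cells (-1.09, edgeR adjusted p = 2.3e-07). Its enhancer PCOLCE was lower on drug than off drug (-1.55, adjusted p = 5e-07). Against the same shares, of 7 cross-linking genes 2 were higher and 4 lower on drug than off drug, and 5 were higher and 1 lower off drug than in parental cells. TGM2, a transglutaminase, averaged 84.8, 912 and 606 CPM and was lower on drug than off drug (-3.43, adjusted p = 9.8e-14), as was the lysyl oxidase LOXL2 at 57.2, 198 and 173 CPM (-1.79, adjusted p = 1.6e-11). LOXL4 was higher off drug than in parental cells (3.52, adjusted p = 1.1e-08), and so was LOX (1.63, adjusted p = 1.4e-08).

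Of 10 collagen receptors tested of 12, 6 were lower on drug than off drug (31.2% of all genes) and the other 4 did not pass the test, while 7 were higher and 2 lower off drug than in parental cells (28.4% and 26.6% of all genes). ITGA2, the integrin subunit that pairs with ITGB1 to bind fibrillar collagen, averaged 8.31, 94.5 and 51.1 CPM on drug, off drug and in parental cells (on drug against off drug -3.51, edgeR adjusted p = 4.4e-12). ITGA1, whose pair with ITGB1 prefers type IV collagen, averaged 7.52, 27.8 and 10.2 CPM (-1.88, adjusted p = 5.6e-09), and ITGA10, a receptor chain of cartilage, 0.263, 7.69 and 0.875 CPM (-4.85, adjusted p = 5.1e-11). Of 12 collagen-degrading enzymes tested of 14, 5 were higher and 6 lower on drug than off drug (31.4% and 31.2% of all genes), and 5 were higher and 5 lower off drug than in parental cells. The interstitial collagenase MMP1 averaged 0.262, 12.2 and 5.56 CPM (-5.51, adjusted p = 3.1e-12) and MMP9 averaged 3.22, 27.2 and 4.54 CPM (-3.08, adjusted p = 7.7e-12), while collagenase MMP13 averaged 23.8, 4.43 and 74.2 CPM and was higher on drug than off drug (2.45, adjusted p = 5.4e-08). Of 4 tested basement membrane partners, LAMB1 (-1.83, adjusted p = 2.3e-10), LAMC1 (-1.10, adjusted p = 2e-07) and HSPG2 (-1.07, adjusted p = 3.9e-07) were lower on drug than off drug, beside 31.2% of all genes. AGRN did not pass the test (-0.01, adjusted p = 0.92). LAMB1, LAMC1 and HSPG2 were opposite in sign to COL4A3, COL4A4 and COL4A6.

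**Figure D5:**
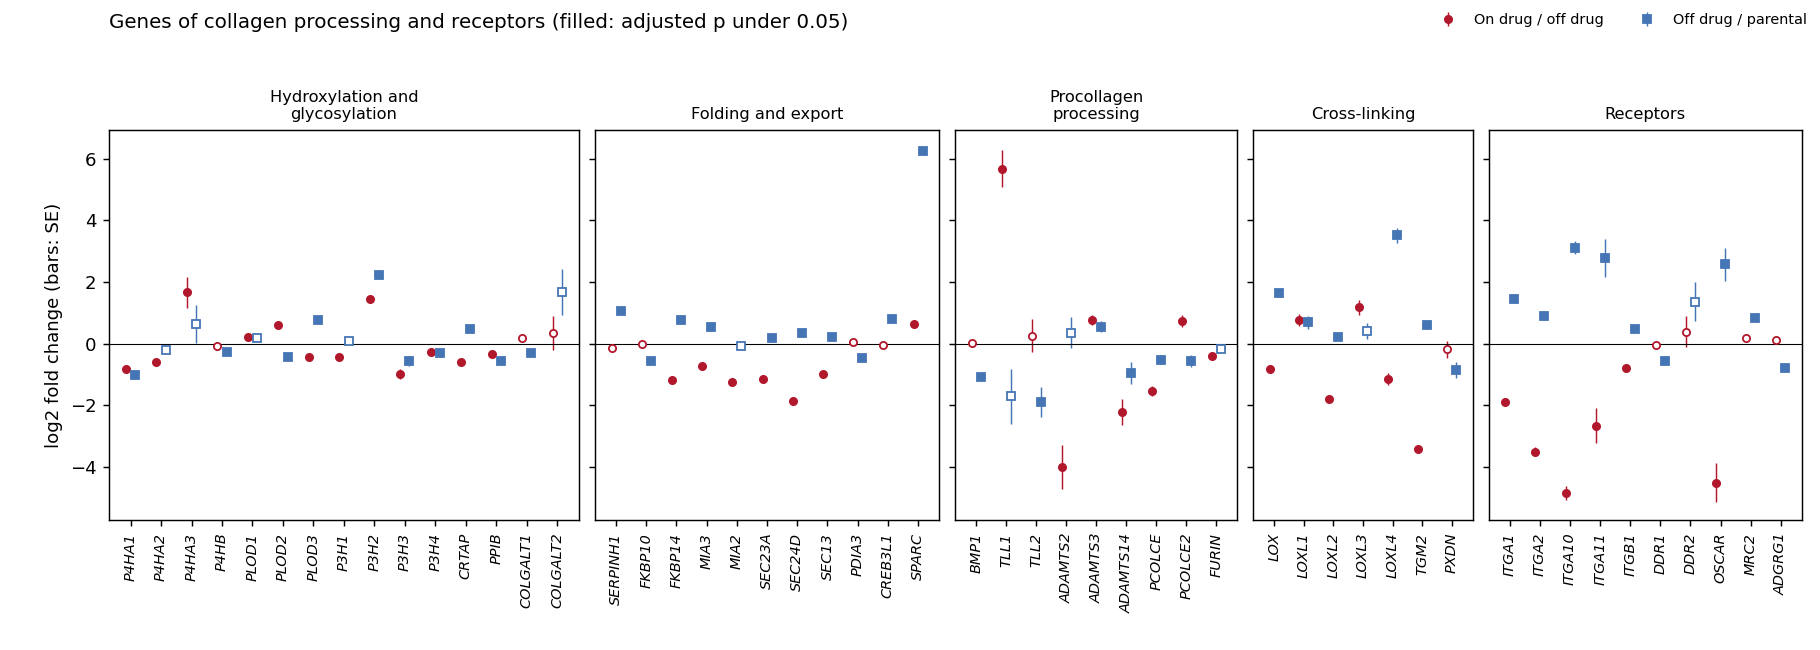
Log2 fold changes with standard errors (vertical axis) of the tested genes of 5 collagen pathway lists, for on drug over off drug (circles) and off drug over parental (squares). Filled symbols have an adjusted p under 0.05. In the receptor panel, the circles of ITGA1, ITGA2 and ITGA10 lie at -1.88, -3.51 and -4.85 and their squares above 0.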

How the data were processed

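Gene-level values were deposited for 9 libraries (3 per state). Per the labels' protocols, libraries were made with oligo(dT) selection and sequenced as read pairs on a NovaSeq. The submitters' processing notes name bcl2fastq 2.17, FastQC 0.12.1, Salmon 0.14.1 and GRCh38.p13. Neither the annotation release nor the strand setting is stated there, and how transcripts were summed to genes is not given in the sources used. The authors deposited estimated counts, which need not be whole, and TPM, which are scaled for length and library. A test on counts had been planned, and the estimated counts were rounded to whole numbers for it.

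Genes were tested with edgeR 4.0.16 in 1 quasi-likelihood fit of all 9 libraries, with TMM factors and filterByExpr at a minimum count of 10, and p-values were adjusted by Benjamini and Hochberg over 17307 genes, with 0.05 as the threshold. The steps were tested on simulated counts. Gene positions came from GENCODE release 29 and promoters from RefSeq. Alternatives used DESeq2 1.42.0, limma 3.58.1, other scalings, filters and log2 TPM values. Members named with each library's value were those called with a mean log2 CPM of at least 1, and up to 4 such genes were eligible per pathway list and comparison. COL3A1, COL4A3 and COL16A1 fall outside this rule and were given by library after their values were seen, and other genes by mean or count. Members and lists were chosen with earlier results of these data known.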

Additional observations from a re-analysis of the deposited data

How the results depend on the processing

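Over 1727 values recomputed for the collagen chain genes and their counts, alternatives other than leaving out a library kept direction and side of the threshold for 873 values, lost the call for 32, gained it for 8 and turned the sign for 21. Leaving out each library in turn kept 746, lost 34, gained 2 and turned 11. Called counts moved most with log2(TPM + 1) or log2(TPM + 0.1) and a mean of at least 1 TPM, which left 12 collagen genes. These gave 5 and 5 higher and 3 and 3 lower on drug against off drug, 6 and 7 higher and 2 and 2 lower off drug against parental cells, and 6 and 6 higher and 2 and 2 lower on drug against parental cells. With log2(TPM + 0.1) on all genes above 0, 2 were lower off drug than in parental cells and 2 lower on drug than in parental cells. On that scale 42 collagen genes and 31918 genes in all were tested, and the cause was not tested. Of all genes, 2700 were lower off drug than in parental cells and 3153 lower on drug than in parental cells. On drug against off drug 6228 were higher and 3032 lower, and 4355 were higher off drug than in parental cells. Counts in the pathway lists moved there too, with 3 hydroxylation and glycosylation genes lower on drug against off drug and 3 off drug against parental cells, 1 and 2 procollagen processing genes lower, 1 and 3 cross-linking genes higher, 3 collagen-degrading enzymes higher on drug against off drug and 2 lower off drug against parental cells. With one library left out, counts were 15 to 18 higher and 5 to 6 lower on drug against off drug, 14 to 14 higher and 6 to 8 lower off drug against parental cells, and 16 to 22 higher and 4 to 5 lower on drug against parental cells. Summed TPM without COL18A1 was 72.2, 68.2 and 42.4 on drug, off drug and in parental cells, and with a library left out the full sum was 112 to 126, 85.4 to 97.7 and 56.8 to 59.9. Calling a member detected at a mean of 0.1 TPM left 31 instead of 42.

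Signs turned as follows, and the cause was not tested. With log2 TPM values, COL4A3 (0.37) and COL5A2 (0.35) turned off drug against parental cells, COL7A1 on drug against parental cells (0.21, 0.26 and 0.26), COL6A1 (0.24, 0.28 and 0.28), COL27A1 (0.63) and COL11A2 (-0.29) on drug against off drug, and COL11A2 off drug (-0.23) and on drug (-0.53) against parental cells. COL28A1 turned on drug against off drug (0.18, 0.26 and 0.26) and on drug against parental cells (0.16, 0.23 and 0.23). With library size only, COL6A1 was 0.13 and COL28A1 0.02 on drug against off drug, and COL6A1 was 0.01 with upper-quartile factors. With a library left out, differences that were not called turned too. Their ranges were -0.17 to 0.19 for COL5A2, -0.18 to 0.52 for COL14A1, -0.29 to 0.70 for COL11A2 and -0.12 to 0.01 for COL28A1 off drug against parental cells, -0.33 to 0.65 for COL11A2 on drug against off drug, and -0.03 to 0.21 for COL13A1 on drug against parental cells.

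Libraries of the same replicate number correlated at -0.03 to 0.14 in their deviations from state means, and those of different numbers at -0.1 to 0.07. With 3 libraries per state these values cannot settle whether the numbers pair the libraries, which the labels do not state. With the replicate block, 18 were higher and 5 lower on drug against off drug, 14 higher and 6 lower off drug against parental cells, and 22 higher and 4 lower on drug against parental cells, with COL5A1 lost from the second comparison (adjusted p = 0.062). Depth limits the genes with a state at or near 3 counts per library, whose folds rest on few counts, and no fold was given where both states were at or under that floor.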
